A study of Mus musculus with 3 samples.

Results

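The 9 long noncoding RNAs described here are Malat1, Neat1, Meg3, Miat, Snhg11, Snhg12, Gas5, Kcnq1ot1 and H19. They were taken by gene symbol from a deposited table of raw read counts with 56941 genes, and each of the 9 symbols matched 1 row. The table holds 3 RNA sequencing libraries from wild type adult C57BL/6J mice. Each was made from microvascular fragments of the brain, which are stretches of capillary and other fine vessel released by mechanical and enzymatic dissociation with neighbouring cells attached. The 3 libraries form 1 group with no transgene, treatment or control, so no contrast between conditions exists. The labels number them as replicates 1, 2 and 3, and 3 mice are named in the design text of the series. The spread given below is the spread between these 3 libraries and can hold technical as well as biological differences. The libraries were made from messenger RNA selected by its poly(A) tail.

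Long noncoding RNAs are transcripts of messenger RNA length that are not known to act through a protein. Malat1 and Neat1 are nuclear RNAs that lie beside each other in the genome: Malat1 gathers in nuclear speckles, where splicing factors are stored, and Neat1 is the scaffold of paraspeckles. Gas5, Snhg12 and Snhg11 are host RNAs whose introns carry small nucleolar RNAs. Meg3, H19 and Kcnq1ot1 are imprinted: Meg3 and H19 are expressed from the maternal copy, and Kcnq1ot1 is an antisense RNA of the paternal copy that silences neighbouring genes. Miat is a nuclear RNA known from neurons and retina, and Meg3 and Snhg11 are also known as neuron-rich. Malat1 and Neat1 lie on chromosome 19, H19 and Kcnq1ot1 on 7, Gas5 on 1, Snhg11 on 2, Snhg12 on 4, Miat on 5 and Meg3 on 12.

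Levels are in CPM, the count scaled to a common effective library total, and a gene was called detected when it had at least 1 CPM in every library. Depth was 128428355, 136672205 and 150449539 counts in replicates 1, 2 and 3, so that 3 counts, the limit that a count of 0 allows for counting error, equal 0.0207 to 0.0231 CPM. All 10 endothelial markers were detected, with a median of 242 CPM per kb of exonic length. Flt1, a receptor for vascular growth factors, had a mean of 3852 CPM. All 8 pericyte, 6 smooth muscle, 7 microglial, 7 astrocyte, 7 choroid plexus and 7 fibroblast markers and 6 of 7 oligodendrocyte markers were also detected. Medians were 234 CPM per kb for microglial, 118 for smooth muscle, 57.5 for pericyte and 22.5 for choroid plexus markers. They were 8.04 for astrocyte, 5.78 for oligodendrocyte and 1.97 for fibroblast markers. Ttr, a choroid plexus marker, had a mean of 6282 CPM, above Flt1. Neuron markers had a median of 0.876 CPM per kb, with 10 of 12 detected. Genes of pituitary cells (summed 37.7, 1557 and 46.2 CPM in replicates 1, 2 and 3) and of red blood cells (1090, 134 and 62.5 CPM) set single libraries apart, as did the lower astrocyte and choroid plexus markers of replicate 3 given below. In a bulk sample, fewer cells of a type and less RNA per cell cannot be told apart.

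Because the libraries were selected on poly(A), the annotated ends of the RNAs were read first. A poly(A) tail is added by the cleavage machinery a short way after the hexamer AATAAA or its common variant ATTAAA. Among the GENCODE M21 transcripts of each gene (build GRCm38), at least 1 transcript of each of the 9 held AATAAA or ATTAAA on its own strand in its last 40 bases. Of these ends, 5 are shown because they carry the contrast between both forms of the hexamer, with the last hexamer in capitals and the annotated end of the transcript at the right.
Malat1-201: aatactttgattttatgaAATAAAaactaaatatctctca
Neat1-202: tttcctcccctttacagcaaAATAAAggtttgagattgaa
Meg3-209: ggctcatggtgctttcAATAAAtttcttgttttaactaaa
Gas5-218: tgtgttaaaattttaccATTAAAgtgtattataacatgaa
Miat-205: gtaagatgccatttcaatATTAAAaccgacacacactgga
The share of transcripts with such a hexamer was 17 of 25 for Gas5, 8 of 10 for Snhg12, 3 of 4 for Malat1, 4 of 7 for H19, 2 of 5 for Snhg11, 4 of 11 for Meg3, 2 of 6 for Miat, 1 of 4 for Neat1 and 1 of 1 for Kcnq1ot1. For comparison, 48.8% of 58616 protein coding and 30.0% of 33126 long noncoding transcripts of 200 bases or more held one. These shares are per transcript, and genes with more transcripts have more ends that can hold one. A share per gene was not taken, so nothing is read from all 9 genes holding one. The Neat1 transcript with the hexamer is a short form of 3004 bases, and the longest, Neat1-201 of 20771 bases, held none.

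Malat1 and the long form of Neat1 are known to end in another way: an enzyme that matures transfer RNAs, RNase P, cuts them, and the new end folds back into a triple helix made of U-rich and A-rich stretches instead of receiving a poly(A) tail. Both stretches are shown because poly(A) selection acts on RNA ends. The letters in capitals are the runs of at least 11 bases that both RNAs hold in the same order.
Malat1-201: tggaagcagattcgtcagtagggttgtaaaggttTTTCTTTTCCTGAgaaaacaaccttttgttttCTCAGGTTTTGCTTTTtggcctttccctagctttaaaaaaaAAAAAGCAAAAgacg
Neat1-201: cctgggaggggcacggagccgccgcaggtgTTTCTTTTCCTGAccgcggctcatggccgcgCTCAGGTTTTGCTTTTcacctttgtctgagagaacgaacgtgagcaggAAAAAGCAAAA
The 3 shared runs were 13, 16 and 11 bases long. In Neat1-201 the last run is the end of the annotated transcript, while Malat1-201 goes on past it: the run of 12 A in its A-rich stretch ends 298 bases before the annotated end. Genome-encoded A runs of this length are not rare: 19.7% of 7040 transcripts of 5000 bases or more hold one of 12 or more. The longest A run was 41 bases in Kcnq1ot1, 16 in Meg3, 12 in Malat1 and Snhg12, 9 in Snhg11, 7 in Neat1, 5 in Gas5 and 4 in Miat and H19. Which RNA ends the selection captured was not tested.

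Of the 9 RNAs, 7 were detected, beside 23.2% of all genes in the table and 3.31% of the 12375 genes annotated as long noncoding. The 9 were chosen as known RNAs, so nothing is read from the higher share. H19 and Miat stayed below 1 CPM in every library but had counts in each. Together the 9 took 19393, 18659 and 20867 counts in replicates 1, 2 and 3, which is 0.0137 to 0.0151% of all counts. Their summed level was 142 ± 7.90 CPM (SD, n = 3). All genes annotated as long noncoding held 0.343 to 0.368% of counts and protein coding genes 97.6 to 97.8%.

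**Figure D1:**
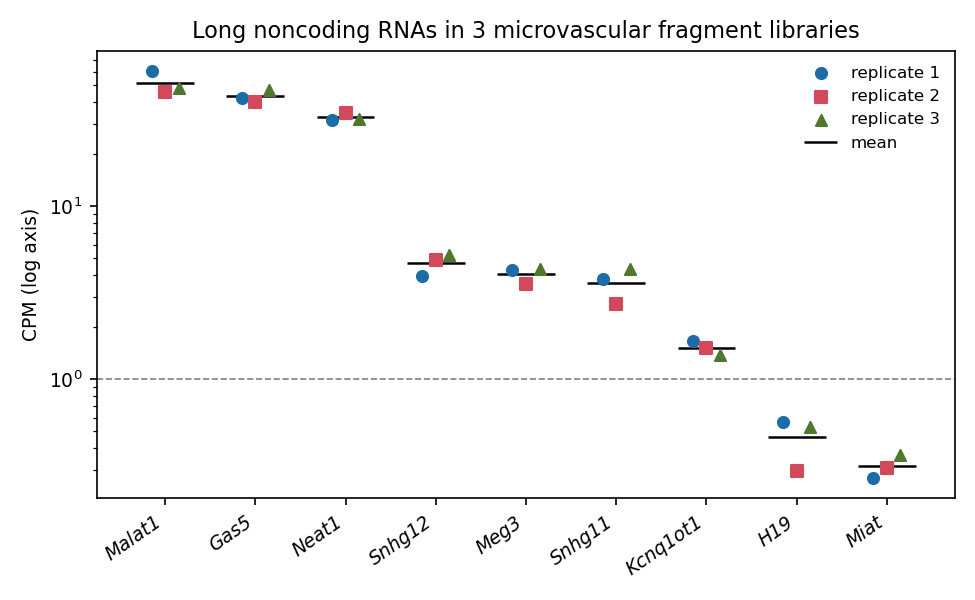
CPM on a log axis for each of the 9 long noncoding RNAs, with 1 point per library, a black bar at the mean of 3 libraries and a dashed line at 1 CPM. Malat1, Gas5 and Neat1 lie between 31.5 and 60.5 CPM, Snhg12, Meg3, Snhg11 and Kcnq1ot1 between 1.38 and 5.23 CPM, and H19 and Miat under the line.

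Malat1 had 60.5, 45.7 and 48.5 CPM in replicates 1, 2 and 3 (7874, 6383 and 7047 counts), a mean of 51.6 ± 7.87 CPM (SD, n = 3). Replicate 1 was the highest, at 1.32 times the lowest, and the other 2 libraries lay close together. The share of mitochondrial counts was also highest in replicate 1, at 3.29% against 1.75 and 1.65%, as were the 7 red blood cell markers, of which 5 were detected and none was at 0 in all libraries. The part of either in the Malat1 level was not tested. Without replicate 1, the mean level of Malat1 was 47.1 CPM instead of 51.6 CPM.

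Neat1 had 31.5, 34.5 and 31.9 CPM (4094, 4829 and 4629 counts), a mean of 32.6 ± 1.67 CPM. With a coefficient of variation of 5.12%, it varied least of the 9 between libraries, and its highest value, in replicate 2, was 1.10 times the lowest. Stress and activity are known to raise Neat1, and the 6 immediate early genes measured here, which respond to dissociation and activity, were also highest in replicate 2, with sums of 395, 1344 and 877 CPM. Their part in the Neat1 level was not tested. Whether the gene counts came from the short or the long form cannot be told apart, because the table holds 1 row per gene. Frmd8os, an annotated neighbour of Neat1, had 5, 0 and 3 counts.

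Transcripts of the proteins that share nuclear bodies with both RNAs were also measured. The genes of all 14 paraspeckle proteins listed were detected, none of the 14 passed the test for variability between libraries described below, and mean levels, not scaled by length, ran from 18.4 ± 2.88 CPM for Pspc1, a core paraspeckle protein, to 464 ± 24.3 CPM for Hnrnpk, an RNA-binding protein needed for paraspeckles. Per length, Sfpq, the gene of a core protein that binds Neat1 and was singled out after its values were seen, exceeded Neat1 by 27.7 to 34.7 times in the 3 libraries, on the scale of CPM per kb of all annotated exons. The size of this ratio depends on the length used for Neat1. On its transcript of 3004 bases, a length added after seeing the data, Neat1 had a mean of 10.9 CPM per kb, beside 49.1 for Sfpq. The genes of all 14 speckle and splicing proteins were likewise detected and none passed that test, from 43.3 ± 2.63 CPM for Pnn to 404 ± 16.2 CPM for Prpf8, a core protein of the spliceosome. Per kb, 10 of 14 paraspeckle and 12 of 14 speckle protein genes were above Malat1. The medians of these lists were 15.5 and 16.2 CPM per kb, beside 5.88 CPM per kb over all detected genes.

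Gas5 is a host RNA that builds up when growth stops and can bind the glucocorticoid receptor. It had 42.5, 39.98 and 47.1 CPM (5537, 5588 and 6840 counts), a mean of 43.2 ± 3.62 CPM. Replicate 3 was highest, at 1.18 times the lowest library. Snhg12, a host RNA described in vessel endothelium, had 3.93, 4.91 and 5.23 CPM (512, 687 and 759 counts), a mean of 4.69 ± 0.675 CPM. It too was highest in replicate 3, and lowest in replicate 1. Snhg11, known from neurons, had 3.80, 2.71 and 4.35 CPM (495, 379 and 631 counts), a mean of 3.62 ± 0.833 CPM. Replicate 2 was lowest, and the highest library had 1.60 times its level. The 3 host RNAs were thus all highest in replicate 3, while Gas5 and Snhg11 were lowest in replicate 2 and Snhg12 in replicate 1. The sums of astrocyte markers (1727, 1935 and 1050 CPM) and choroid plexus markers (9846, 10663 and 6535 CPM), 7 of 7 detected in each list, were lowest in replicate 3. Slc1a2 gave 1210, 1303 and 627 CPM of the astrocyte sum, and Ttr 6329, 7759 and 4759 CPM of the other. The astrocyte marker Gja1, at 75.2, 80.9 and 77.3 CPM, was instead lowest in replicate 1. The part of these markers in the host RNA levels was not tested. GENCODE M21 lists Snhg11 as protein coding, although the RNA is described as noncoding.

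The small RNAs inside these hosts gave no counts. GENCODE M21 places 10 small nucleolar RNA or microRNA genes within Gas5, 5 within Snhg12 and 2 within Snhg11. Of these, 9, 5 and 2 have a row in the table, and every row was at 0 in all 3 libraries. Of all 1379 small nucleolar RNA rows, 160 had any count and none was detected. Of the exonic length annotated for the hosts, 17.8% in Gas5 and 19.6% in Snhg12 lie under exons of other genes on the same strand. How reads over such stretches were assigned is not given in the sources used here, and its part in the host counts was not tested.

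Of 17 other host RNAs, 9 were detected and none passed the test for variability between libraries. Among those detected, mean levels, not scaled by length, ran from 1.30 ± 0.0109 CPM for Snhg20 to 21.8 ± 1.42 CPM for Snhg18. By mean per length with all exons merged, 2 of the 14 with a known length exceeded Gas5 at 11.5 CPM per kb. These were Snhg18 at 14.7 and Snhg8 at 12.9 CPM per kb, Snhg8 being singled out after its values were seen. In replicate 1 Snhg8, with 9.35 CPM over 853 bases, was below Gas5 at 11.3 CPM per kb. On its longest transcript of 2556 bases Gas5 had a mean of 16.9 CPM per kb, above both of these means. Snhg3 had 0, 0 and 2 counts. Exons of other genes lie over 86.3% of its exonic length, 71.5% on the opposite and 29.8% on the same strand, and the part of this overlap in the count was not tested.

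**Figure D2:**
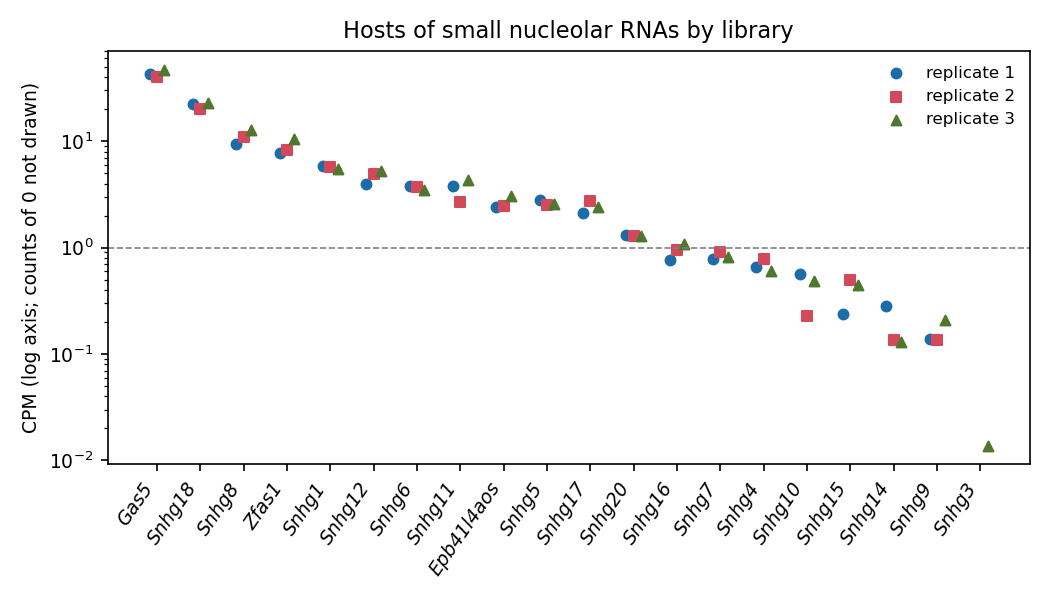
CPM on a log axis for 20 host RNAs of small nucleolar RNAs, ordered by mean, with 1 point per library, counts of 0 not drawn and a dashed line at 1 CPM. Gas5 stands at the left between 39.98 and 47.1 CPM, Snhg12 and Snhg11 lie between 2.71 and 5.23 CPM, and 8 hosts had a library below the line.

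Spliced host RNAs with short reading frames are known targets of nonsense-mediated decay, the pathway that destroys RNAs with an early stop codon. All 10 factors of this pathway listed were detected, and none passed the test for variability. The core helicase Upf1 had 78.1 ± 7.34 CPM and its partners Upf2, Upf3a and Upf3b had 38.7 ± 3.72, 43.5 ± 2.41 and 10.7 ± 1.14 CPM. The kinase Smg1, which acts on Upf1, had 64.3 ± 4.63 CPM, and its regulators Smg8 and Smg9 had 28.5 ± 3.04 and 24.8 ± 2.54 CPM. Smg5 and the nuclease Smg6, which act after Upf1 is phosphorylated, had 63.0 ± 4.66 and 64.2 ± 4.46 CPM. The 10 factors summed to 476, 515 and 491 CPM, lowest in replicate 1 and highest in replicate 2, whereas the 3 host RNAs summed to 50.3, 47.6 and 56.7 CPM, lowest in replicate 2. With 3 libraries no relation between the sums can be tested.

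Meg3 lies in the imprinted Dlk1-Dio3 domain and had 4.27, 3.56 and 4.35 CPM (556, 498 and 631 counts), a mean of 4.06 ± 0.433 CPM. Replicate 2 was lowest, and the highest library had 1.22 times its level. The maternally expressed RNAs Rian and Mirg follow Meg3 in the same orientation and host small nucleolar RNAs and microRNAs. Rian had 4.53, 5.27 and 3.09 CPM, a mean of 4.29 ± 1.11 CPM, and Mirg had 0.131, 0.401 and 0.241 CPM. Both were highest in replicate 2, where Meg3 was lowest, and Rian was lowest in replicate 3. Per length, Rian stood at 1.05, 1.47 and 0.704 times the level of Meg3 in replicates 1, 2 and 3, so neither RNA was above the other in every library, and Mirg stood at 0.0758 to 0.279 times.

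Of the paternally expressed genes of the domain, Dlk1 gave few counts outside replicate 2, and Rtl1 and Dio3 gave few in every library. Dlk1, a membrane protein related to Notch ligands, had 0.807, 21.9 and 0.496 CPM, with replicate 2 at 44.2 times the lowest library. It was 1 of 15 genes that passed the test for variability between libraries (edgeR quasi-likelihood, adjusted p = 0.0133). Rtl1, a retrotransposon-derived gene, had 0.0692, 0.107 and 0.0551 CPM, and Dio3, which inactivates thyroid hormone, had 0.0615, 0.0215 and 0.0276 CPM. Pituitary markers stood apart in the same library as Dlk1: of 11, 2 were detected in every library, none was at 0 in all libraries, 5 passed the same test, and their sum was 1557 CPM in replicate 2 against 37.7 and 46.2 CPM. Their part in the Dlk1, Rian and Mirg levels was not tested. Meg3 had its lowest value in that library. The 12 neuron markers, none at 0 in all libraries, summed to 159, 136 and 147 CPM, and Stmn2 alone gave 80.5, 69.97 and 87.6 CPM of it. Their median deviation on the log2(CPM + 1) scale was 0.10, -0.05 and -0.07 in replicates 1, 2 and 3, so the sum was lowest in replicate 2 and the median in replicate 3. Their part in the Meg3 and Snhg11 levels was not tested.

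**Figure D3:**
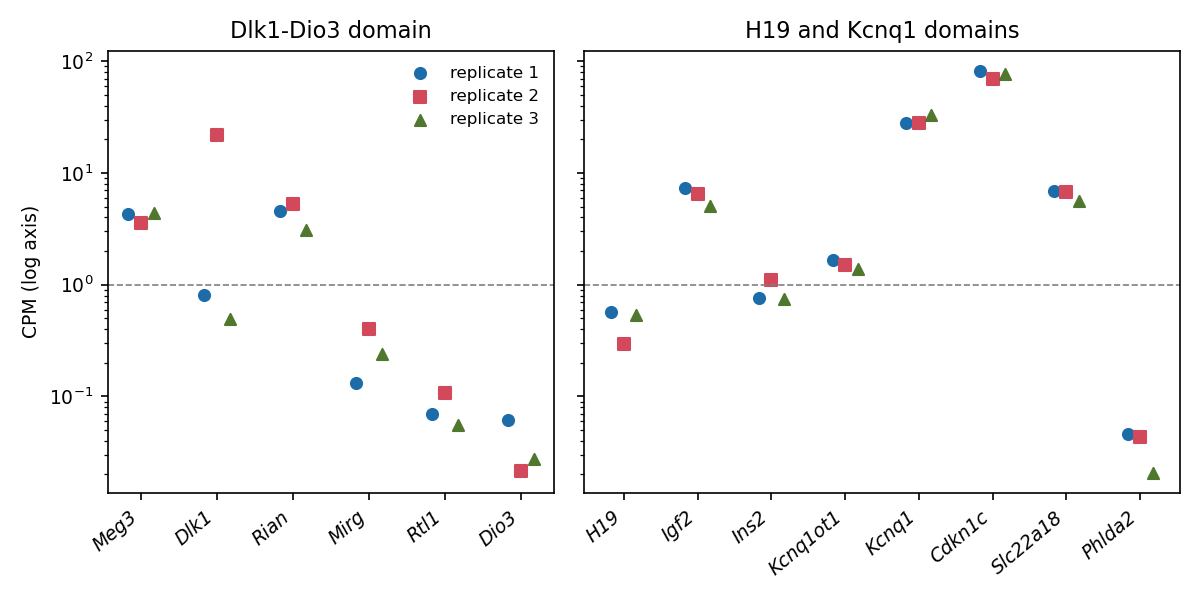
CPM on a log axis for genes of the Dlk1-Dio3 domain (left) and of the H19 and Kcnq1 domains (right), with 1 point per library and a dashed line at 1 CPM. Dlk1 reached 21.9 CPM in replicate 2 alone, while the points of Meg3 lie between 3.56 and 4.35 CPM and those of Kcnq1ot1 between 1.38 and 1.66 CPM.

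H19, a maternal RNA abundant in fetal tissue and low after birth, had 0.569, 0.293 and 0.530 CPM. These values rest on 74, 41 and 77 counts, with a mean of 0.464 ± 0.149 CPM. Replicate 2 was lowest, and the highest library had 1.94 times its level, the widest relative range of the 9. Igf2, the paternally expressed growth factor that shares enhancers with H19, had 7.42, 6.45 and 5.02 CPM, a mean of 6.30 ± 1.21 CPM. Per length, Igf2 exceeded H19 in every library, by 4.07 to 9.45 times. Ins2, an insulin gene beside Igf2, had 0.869 ± 0.196 CPM.

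Kcnq1ot1 had 1.66, 1.51 and 1.38 CPM (216, 211 and 200 counts), a mean of 1.52 ± 0.141 CPM. Replicate 1 was highest, at 1.205 times the lowest library. Its gene lies within the potassium channel gene Kcnq1 on the opposite strand, as 1 unspliced transcript of 93092 bases in GENCODE M21. The strand setting of the authors' counting is not given in the sources used here, and without strand the reads of unspliced Kcnq1 RNA and of Kcnq1ot1 cannot be told apart. Kcnq1 had 28.2, 28.3 and 33.4 CPM, a mean of 30.0 ± 2.94 CPM, and per length exceeded Kcnq1ot1 by 387 to 551 times. The size of this ratio depends on the 93092 bases used as the length of Kcnq1ot1. Replicate 3 was highest for Kcnq1 and lowest for Kcnq1ot1.

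Genes that Kcnq1ot1 is known to silence on the paternal copy were measured in the same libraries. Cdkn1c, an inhibitor of the cell cycle, had 82.3, 69.4 and 76.6 CPM, a mean of 76.1 ± 6.42 CPM. Per length it stood 2100 to 2538 times above Kcnq1ot1, a ratio that again depends on the length used for Kcnq1ot1. Not scaled by length, Kcnq1ot1 had a mean of 1.52 CPM. Slc22a18, a membrane transporter, had 6.44 ± 0.665 CPM. Phlda2, which restrains placental growth, had 6, 6 and 3 counts, close to the limit that a count of 0 allows. Farther genes of the domain included Cd81, a tetraspanin, at 717 ± 31.6 CPM, Nap1l4, a histone chaperone, at 149 ± 9.28 CPM and Tssc4 at 28.6 ± 3.80 CPM. Tspan32 had 1.54 ± 0.277 CPM, Ascl2, a transcription factor of the placenta, 0.938 ± 0.109 CPM and Trpm5, a cation channel of taste cells, 0.376 ± 0.147 CPM. Of the 12 other genes of both domains, 8 were detected, and none passed the test for variability. Counts do not separate the maternal from the paternal copy.

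H19 and Meg3 are also the precursors of microRNAs. GENCODE M21 places 1 small nucleolar RNA or microRNA gene within H19 and 2 within Meg3, each at 0 in all 3 libraries. The mature sequences of miR-675, within H19, and miR-770, within Meg3, are shown because the processed products are short RNAs without a poly(A) tail. They are taken from RefSeq (GRCm38.p6), written 5′ to 3′ with the seed, bases 2 to 8, in capitals.
mmu-miR-675-5p: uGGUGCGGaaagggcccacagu
mmu-miR-675-3p: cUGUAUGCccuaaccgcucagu
mmu-miR-770-5p: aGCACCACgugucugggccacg
mmu-miR-770-3p: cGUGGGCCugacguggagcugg
The miR-675 arms lie within H19 at chr7:142577112-142577133 and chr7:142577078-142577099 on the minus strand, and the miR-770 arms within Meg3 at chr12:109563710-109563731 and chr12:109563744-109563765 on the plus strand. No 2 of the 4 share a seed. The rows Mir675 and Mir770 had 0 counts in all 3 libraries, which speaks of these gene rows and not of the mature miRNAs.

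Miat had 0.269, 0.308 and 0.365 CPM (35, 43 and 53 counts), a mean of 0.314 ± 0.0484 CPM. Replicate 3 was highest, at 1.36 times the lowest library. Exons of other genes cover 30.4% of the exonic length of Miat, the highest share of the 9, and 24.3% lies under exons of the opposite strand. Its neighbour Cryba4, a lens crystallin gene, had 4.41 ± 0.819 CPM, and the neighbour 1700028D13Rik was at 0 in all libraries.

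The 9 RNAs were put in order per length, as CPM per kb of all annotated exons merged, since CPM alone also reflects length. Gas5 was first with 11.5 ± 0.963 CPM per kb (SD, n = 3) over 3760 bases, followed by Malat1 with 7.39 ± 1.13 over 6983 bases. Snhg12 came next with 1.95 ± 0.281 CPM per kb and did not differ from Neat1, with 1.57 ± 0.0805, beyond the spread of libraries. Snhg11 had 0.425 ± 0.0978 CPM per kb. Meg3, with 0.224 ± 0.0239, did not differ from H19, with 0.189 ± 0.0606, beyond that spread. Miat had 0.0338 ± 0.00521 and Kcnq1ot1, the longest, 0.0163 ± 0.00152 CPM per kb. The ranges over libraries of all other neighbours in this order did not overlap.

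The 9 RNAs lay at very different places among the detected genes per length. With all exons merged, Gas5 stood above 68.2% and Malat1 above 56.6% of detected genes, and these were the only members above the median detected gene. Snhg12 stood above 23.7%, Neat1 above 19.97%, Snhg11 above 4.36%, Meg3 above 1.04%, H19 above 0.639% and Miat above 0.0078%. Kcnq1ot1 was below all detected genes with a length. Malat1 stood at 3.93 to 5.72 times Neat1 per length with all exons merged. The choice of length reversed that order: on the short Neat1 transcript of 3004 bases that carries the polyadenylation hexamer, a length added after seeing the data, Neat1 had 10.5 to 11.5 CPM per kb, above Malat1 at 6.54 to 8.66 CPM per kb in every library. On that length Neat1 was also above the median detected gene, which had 5.88 CPM per kb with all exons merged.

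**Figure D4:**
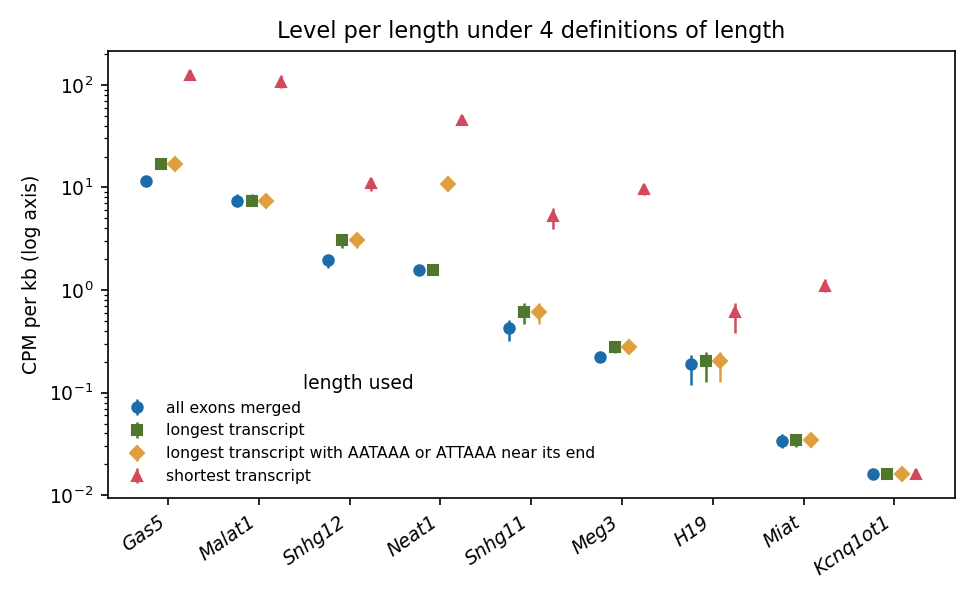
CPM per kb on a log axis for the 9 long noncoding RNAs under 4 definitions of gene length, with points at the mean and bars from the lowest to the highest of 3 libraries. Gas5 and Malat1 lead with all exons merged, at 11.5 and 7.39 CPM per kb, and Neat1 passes Malat1 only on the length of its transcript with a polyadenylation hexamer.

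Variability between the libraries was tested for all genes with edgeR's quasi-likelihood dispersions. Of 18087 genes tested, 15 varied more than the trend at their level (0.0829%, Benjamini-Hochberg adjusted p under 0.05), and 937 had an unadjusted p under 0.05. None of the 9 RNAs passed by edgeR, none had an unadjusted p under 0.05, and none was a dispersion outlier in DESeq2, which marked 112 genes. Malat1 had the lowest p of the 9 (edgeR quasi-likelihood, adjusted p = 0.993). With 3 libraries, wide differences could go uncalled. Fos and Egr1, with highest libraries at 6.32 and 5.72 times the lowest, did not pass (edgeR quasi-likelihood, adjusted p = 0.0529 for both). The widest range of the 9 was 1.94 times, for H19, so the lack of calls does not show that the 9 are stable. The coefficients of variation of the 7 detected RNAs ranged from 5.12% for Neat1 to 23.0% for Snhg11, with a median of 10.7%, beside 9.59% over all 13211 detected genes and 13.0% over the 410 detected long noncoding genes. On the log2(CPM + 1) scale, the largest deviation of a library from the mean of a member was -0.30 for Snhg11 in replicate 2, and the next was 0.24 for Malat1 in replicate 1. The medians over the 9 were 0.06, -0.11 and 0.07 in replicates 1, 2 and 3, beside -0.01, -0.003 and 0.01 over all detected genes. An exact two-sided sign-flip permutation test over 3 libraries cannot go below p = 0.25, so these medians were not tested.

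Genes with the most similar values over the 3 libraries were found by Euclidean distance on log2(CPM + 1) among the detected genes. The nearest to Malat1 were Ikzf1 and Dpy19l4, to Neat1 Ssx2ip and Rbm33, and to Gas5 Tcf7l1 and Trpv2. The nearest to Meg3 were Mtus2 and Zfp109, to Snhg11 R74862 and Lin7a, to Snhg12 Ccdc163 and Cox16, and to Kcnq1ot1 Ccr10 and Ifi204. H19 and Miat, both below the detection limit, shared Radil and Nudt6 as their nearest detected genes. The measure mostly reflects level and rests on 3 libraries that all genes share.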

How the data were processed

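Polyadenylated RNA of 3 libraries was sequenced as stranded paired reads, per the labels' protocols. The authors deposited whole-number counts per gene, not normalized; featureCounts, Subread 1.4.6-p5 and GRCm39 stand in the submitters' processing notes. Not given in the sources used here are the aligner, the strand setting and the treatment of overlapping genes and multiply mapped reads. The 9 RNAs and all comparison lists were chosen with earlier results of these data known.

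CPM used TMM effective library sizes (edgeR 4.0.16, R 4.3.3; factors 1.01, 1.02 and 0.965). Lengths, exon overlap and transcript sequences came from GENCODE M21, matched by symbol (49083 of 56941 genes). That annotation is of another build, GRCm38, so only the miRNA coordinates, from RefSeq GRCm38.p6, are given. Variability was tested by an intercept-only edgeR quasi-likelihood fit after filterByExpr, with an upper-tail F test of each dispersion against the trended prior, checked on simulated counts. Lists were handled in Python 3.11.15 (numpy 2.4.6, pandas 2.3.3).

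The named genes were the 9 RNAs, their annotated neighbours, the 2 nearest detected genes by distance, the highest and lowest detected gene by mean CPM of each list, any gene called variable, and every gene of lists of up to 12, except that 2 genes are not reported here. Alternatives were other scalings, detection limits, lengths, pseudocounts, gene filters and dispersion tests (DESeq2 1.42.0), and leaving out each library. No set test was run.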

Additional observations from a re-analysis of the deposited data

How the results depend on the processing

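No paired analysis was possible because the 3 libraries form 1 group. All 54 alternative mean levels of single RNAs moved by less than 1 SD. For the left-out libraries this was fixed in advance, because leaving out 1 of 3 values cannot move their mean by 1 SD. The summed level ranged from 138.6 to 146.4 CPM over the left-out libraries and other scalings. At a limit of 5 CPM, 3 of the 9 RNAs were detected instead of 7. None of the 9 was called variable under any setting, which does not show that they are stable. The number of genes called variable was 173 among all genes with any count, 0 with a robust prior (785 with an unadjusted p under 0.05) and 112 in DESeq2. It ranged from 7 to 80 over the left-out libraries, with 7 without replicate 1, 80 without replicate 2 and 33 without replicate 3. In the order per length, 3 of 9 RNAs kept their place on the shortest transcript and 6 on the longest transcript with a hexamer, the latter added after seeing the data. With all exons merged and all genes with any count as background, 5 instead of 2 RNAs stood above the median. The cause of these shifts was not tested. Depth limits H19 and Miat, which rest on 35 to 77 counts per library.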

Other observations

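Of 21 other imprinted genes listed outside both domains, 20 were in the table and 16 were detected. The share detected was 61.6% over all protein coding genes and 23.2% over all genes in the table. The list holds known genes, so nothing is read from its share. None of the listed genes was called variable by edgeR. Their mean levels, not scaled by length, ran from 1.48 ± 0.279 CPM (SD, n = 3) for the antisense RNA Airn to 1750 ± 120 CPM for Gnas, a G protein subunit gene, and the rows of Magel2 and Snurf were at 0 in all libraries. Chosen after their values were seen, the transcription factor Plagl1 had 13.1, 6.62 and 3.55 CPM (adjusted p = 0.428) and Nnat had 44.3, 94.5 and 32.5 CPM (adjusted p = 0.282, both edgeR quasi-likelihood). Nnat was highest in replicate 2, the library with the highest pituitary markers, whose part was not tested.

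Of 28 other long noncoding RNAs listed, 27 were in the table, 8 were detected and none was called variable. Rian and Mirg are also on this list. On CPM, not scaled by length, the detected ones ran from 2.50 ± 0.224 CPM for Mir22hg, a microRNA host, to 261 ± 30.4 CPM for Oip5os1, and Hotair was at 0 in all libraries. Bvht, described in heart development and named after its values were seen, had 36.7, 42.2 and 46.2 CPM. At 59.6 CPM per kb Bvht was the only one of the 23 with a known length to stand above Gas5. Those without a known length, among them Oip5os1 with the highest CPM of the list, could not be compared.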
